A study of Mus musculus with 2 samples.

Results

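The genes described here are 8 known off-target genes of activation-induced cytidine deaminase (AID) in mouse B cells: Myc, Pvt1, Pim1, Bcl6, Cd83, Il4ra, Il21r and Irf4. They were taken as a list of names, without a rule on values, but with earlier results of these data known. All 8 were found among the 49591 RefSeq genes that held reads. They were measured by END-seq, which sequences the ends of broken DNA, in primary CD43- B cells from the spleens of mice that were 4 to 8 weeks old. The S library came from activated cells in S phase, whose culture of 24 to 28 h contained anti-CD40 at 1 µg/mL and IL-4 at 25 ng/mL. The G1 library came from quiescent cells in G1 phase, whose culture of 24 to 28 h contained neither agent. Both are titled ATR+c, a term left unexplained there, and the labels name no strain, genotype or number of mice. Each group is 1 library, so no difference below has a replicate check or a p-value, and the differences are between these libraries, with cell cycle phase and activation not separable.

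AID deaminates cytosine in single-stranded DNA exposed by transcription, and its intended targets in activated B cells are the variable and switch regions of the immunoglobulin genes, where the lesions are processed into mutations and double-strand breaks. It also acts at lower rates on other transcribed genes, mostly in the first kilobases after the transcription start. Breaks at such genes can join to the immunoglobulin heavy chain locus, as in the Igh-Myc translocations of mouse plasmacytoma. In END-seq the strand of a read tells on which side of the break the sequenced DNA lies, the right for plus and the left for minus, so a break with both ends gives reads on both strands and a 1-ended break gives reads on 1 strand.

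The S library held 21997695 reads on 7752336 strand-specific positions and the G1 library 28933109 reads on 7538681 positions. With 2.84 and 3.84 reads per position, repeated reads can be copies of 1 molecule, so each gene is given both in reads and in distinct positions (bases of a strand with at least 1 read). Chromosomes 1 to 19 gave the total for scaling, and a ratio is the S library over the G1 library with an exact 95% Poisson interval, conditional on the sum of both counts. That interval covers counting error only and is too narrow for stacked reads. Signal from DNA ends gives no expression, so the labelled cell type could not be checked against its markers. As DNA, the marker genes had median log2 ratios of 0.16 over 5 B cell genes, -0.44 over 4 T cell genes and 0.06 over 4 myeloid genes. Protein-coding genes had a median of 0.13. By positions these medians were 0.28, -0.11 and 0.0022, beside 0.17. Each list went both ways by reads, with a ratio above 1 in 4 of the 5 B cell, 1 of the 4 T cell and 3 of the 4 myeloid genes.

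Across the gene bodies with 2 kb on each side, 7 of the 8 genes had more scaled reads in the S library than in the G1 library. Pim1 stood highest, at 1.73-fold, and Bcl6 and Cd83 were the others with an interval above 1. Irf4 alone lay below 1, at 0.918. A ratio above 1 was also the rule elsewhere, since 66.4% of protein-coding genes had one by reads and 71.3% by positions, where 7 of the 8 did too. The median log2 ratio of the 8 genes was 0.26 by reads, beside 0.13 over protein-coding genes and 0.10 over all genes, and 0.35 by positions, beside 0.17 over protein-coding genes.

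**Figure D1:**
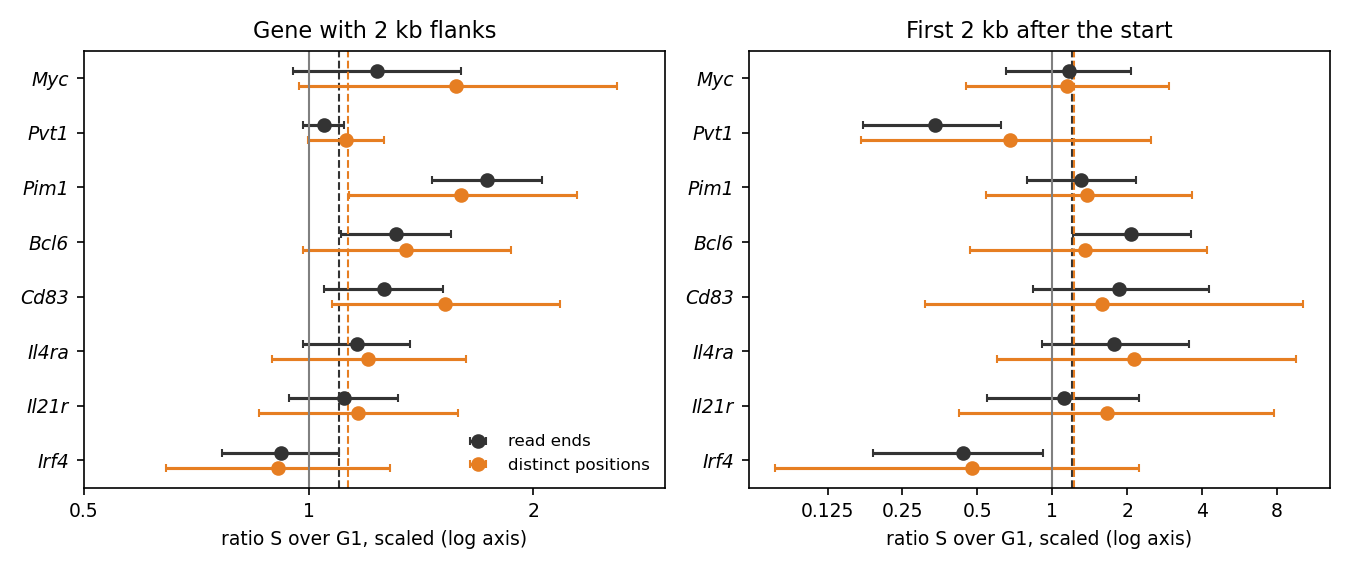
Ratio of the S over the G1 library for each gene (log axis), by reads and by distinct positions, in the gene with 2 kb flanks and in the 2 kb after the start; points are ratios, bars their 95% counting intervals and dashed lines the medians of protein-coding genes. In the gene windows Pim1 is highest at 1.73 by reads and 1.60 by positions, and in the 2 kb after the start all 8 intervals by positions hold 1.

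Among the transcription factors, Myc, which drives cell growth and division, lies at chr15:61985341-61990361 (mm10, as are all coordinates here). Its window held 118 reads on 48 positions in the S library and 125 reads on 29 positions in the G1 library. The ratio was 1.24 by reads (0.953 to 1.60) and 1.57 by positions (0.972 to 2.59), and both intervals held 1. Bcl6, the repressor that maintains germinal centre B cells, lies on the minus strand at chr16:23965050-23988866. It held 282 reads in each library, on 98 positions in the S library and 69 in the G1 library, so the smaller S library had the higher scaled level. Its ratio was 1.31 by reads (1.11 to 1.55), whereas by positions the interval around 1.35 held 1 (0.982 to 1.86). Irf4, which controls activation and plasma cell differentiation, lies at chr13:30749233-30766981. Its 211 reads on 69 positions in the S library stood against 301 reads on 72 positions in the G1 library. The ratios of 0.918 (0.766 to 1.10) by reads and 0.911 (0.645 to 1.29) by positions both had intervals that held 1.

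Pim1 encodes a serine/threonine kinase that promotes survival of lymphocytes and lies at chr17:29490785-29496111. Its window held 323 reads on 91 positions in the S library and 244 reads on 54 positions in the G1 library. Both measures put it above 1, at 1.73 (1.46 to 2.05) by reads and 1.60 (1.13 to 2.29) by positions.

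Of the surface molecules, Cd83, an activation marker of the immunoglobulin superfamily, lies at chr13:43785112-43803133. It held 232 reads on 88 positions in the S library against 241 reads on 55 positions in the G1 library. Its ratio was 1.26 by reads (1.05 to 1.52) and 1.52 by positions (1.07 to 2.17), so it joined Pim1 as the other gene above 1 by both measures. Il4ra, the receptor chain for the IL-4 given to the activated cells, lies at chr7:125552271-125579474. Il21r, the receptor of the helper T cell cytokine IL-21, follows it at chr7:125603252-125634397. For Il4ra the libraries held 279 and 315 reads on 105 and 83 positions, a ratio of 1.16 by reads (0.983 to 1.37). For Il21r they held 264 and 310 reads on 98 and 80 positions, a ratio of 1.11 (0.942 to 1.32). Neither receptor gene differed beyond counting error, also by positions, at 1.20 (0.893 to 1.62) and 1.16 (0.858 to 1.58).

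Pvt1, a long non-coding RNA gene downstream of Myc that is itself a site of translocation breakpoints, spans 222.23 kb at chr15:62037986-62260215. With 1794 reads on 630 positions in the S library and 2242 reads on 533 positions in the G1 library it held the most reads of the 8, over by far the longest window. Its ratio had the narrowest interval and was near 1, at 1.05 (0.984 to 1.11) by reads and 1.12 (0.9996 to 1.26) by positions.

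By the rule of size, 1.5-fold or more and no fewer than 20 reads in all, 1 of the 8 genes was higher in the S library by reads (Pim1), beside 12.3% of protein-coding genes. By positions 3 of the 8 passed (Pim1, Myc and Cd83), beside 11.2%. None had a ratio at or below 1/1.5 by reads, beside 4.74%, or by positions, beside 3.91%. An interval above 1 was held by 3 of the 8 by reads, beside 36.1%, and by 2 of the 8 by positions, beside 15.1%. No interval lay below 1 by reads (11.1% of protein-coding genes) or by positions (3.27%). Summed over the 8 genes, the S library held 3503 reads against 4060, a ratio of 1.13 (1.08 to 1.18), and 1227 positions against 975, a ratio of 1.20 (1.10 to 1.30). Pvt1 holds most of these counts, and the other 7 genes gave 1.23 (1.15 to 1.32) by reads. The median ratio of protein-coding genes was 1.10 by reads and 1.13 by positions, inside the intervals of the sums over the 8 genes.

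Levels were compared between genes as reads per kb and per 1000000 reads on chromosomes 1 to 19. Pim1 had the highest density in both libraries, 1.69 in the S library and 0.973 in the G1 library, at the percentiles 99.0 and 98.0 of protein-coding genes. The other 7 ranged from 0.366 (Il21r) to 0.637 (Myc) in the S library and from 0.328 (Il21r) to 0.515 (Myc and Irf4) in the G1 library. The median protein-coding gene had 0.394 and 0.362, and 6 of the 8 genes were above it in the S library and 7 in the G1 library. The interval lay above that median for 5 genes in the S library (Pim1, Myc, Bcl6, Cd83 and Irf4) and for 3 in the G1 library (Pim1, Myc and Irf4). Against the medians of positions, these counts were 3 and 2. The share of protein-coding genes passing this rule was not counted. By positions, the interval of Pim1 in the S library was apart from that of Myc, the next gene, while the intervals of all later neighbours in that order overlapped.

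**Figure D2:**
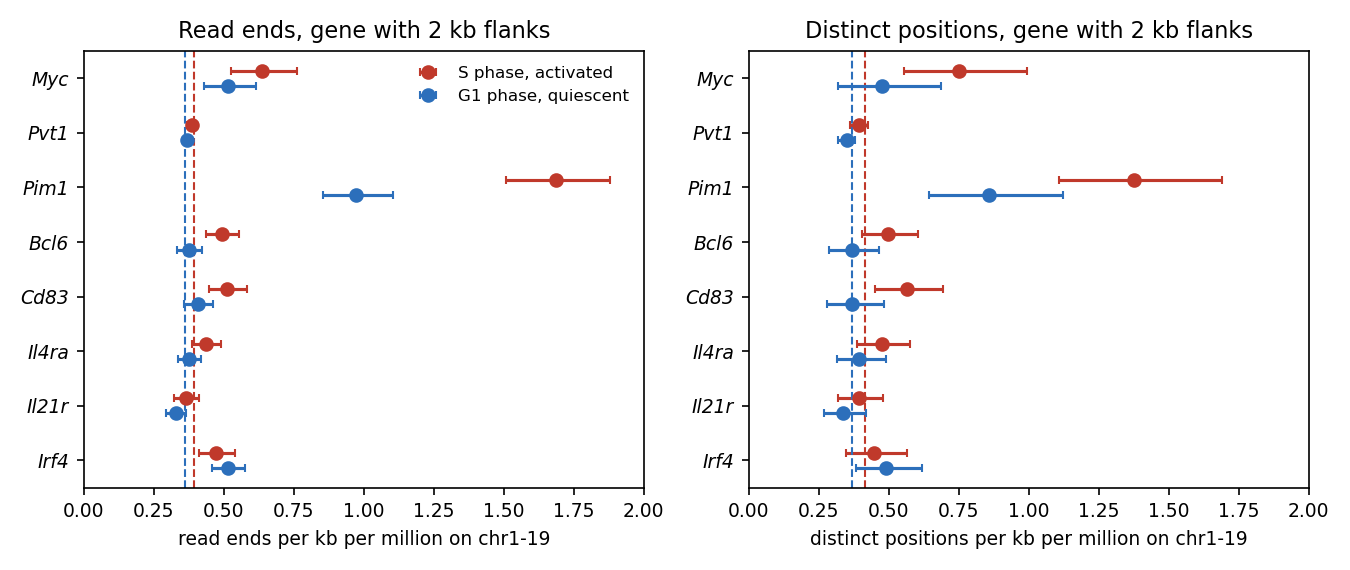
Density of END-seq signal in each gene with 2 kb flanks, as reads (left) and distinct positions (right) per kb per 1000000 on chromosomes 1 to 19, in the S and G1 libraries; points are levels, bars 95% counting intervals and dashed lines the medians of protein-coding genes. Pim1 sits apart at 1.69 reads per kb per 1000000 in the S library, against medians of 0.394 and 0.362 in the S and G1 libraries, and the other genes range up to 0.637 (Myc).

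The signal of Pim1 was concentrated before its start. The 1 kb before the start held 185 of its 323 reads in the S library (57.3%) and 167 of 244 in the G1 library (68.4%), on 40 and 32 positions. That placed it at the percentiles 97.1 and 97.3 of protein-coding genes. This 1 kb, set apart after its values were seen, had a ratio of 1.45 by reads (1.17 to 1.80) and 1.19 by positions (0.728 to 1.95). Without it, the window held 138 reads against 77, a ratio of 2.35 (1.76 to 3.14), and 51 positions against 22, a ratio of 2.20 (1.31 to 3.82). The intervals of both pieces overlapped.

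Within that 1 kb the ends formed a narrow group on 1 strand. From 300 to 171 bases before the start, the minus strand held 155 reads on 29 positions in the S library and 114 reads on 19 positions in the G1 library, whereas the plus strand held 2 reads and 1 read. Over the last 170 bases before the start the strands changed places. The minus strand held 0 reads in both libraries, and the plus strand 18 reads on 7 positions and 21 reads on 6 positions. These spans were set after the positions were seen. Individual bases recurred between the libraries. In the 1 kb, 14 minus-strand positions, from 279 to 173 bases before the start, were covered in both and held 85 and 90 reads. The highest position in the S library, 209 bases before the start, had 17 reads there and 12 in the G1 library. The highest in the G1 library, 224 bases before the start, had 15 reads there and 5 in the S library.

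**Figure D3:**
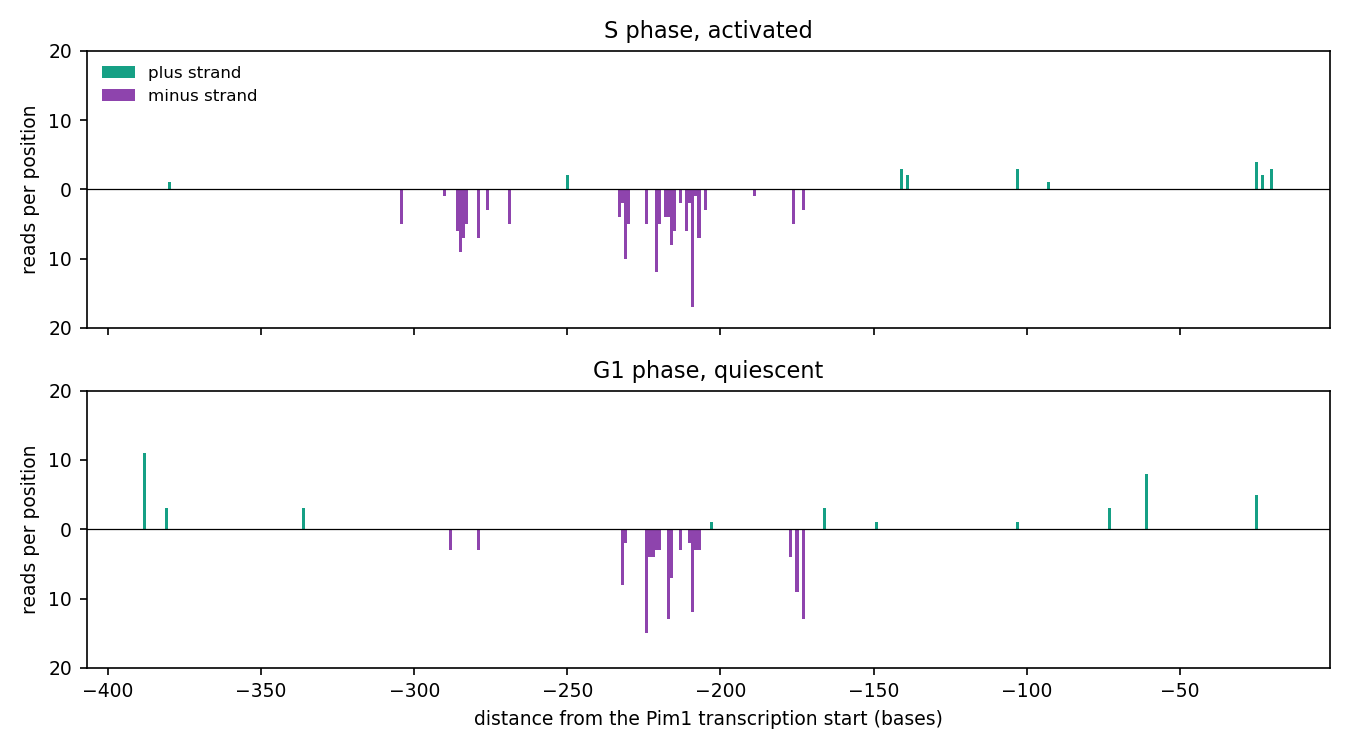
Reads per position around the Pim1 start in the S library and the G1 library, with plus-strand reads upward and minus-strand reads downward against distance from the start in bases. The minus-strand group lies from 300 to 171 bases before the start in both libraries, with 155 and 114 reads, and the tallest bars reach 17 and 15 reads.

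The 250 bases before the Pim1 start (RefSeq, GRCm38.p6, chr17:29490535-29490784, plus strand) are shown because most of this group of ends falls in them, 112 of the 155 reads in the S library and 108 of the 114 in the G1 library. Capitals mark the 13 bases with a minus-strand end in both libraries.

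Pim1: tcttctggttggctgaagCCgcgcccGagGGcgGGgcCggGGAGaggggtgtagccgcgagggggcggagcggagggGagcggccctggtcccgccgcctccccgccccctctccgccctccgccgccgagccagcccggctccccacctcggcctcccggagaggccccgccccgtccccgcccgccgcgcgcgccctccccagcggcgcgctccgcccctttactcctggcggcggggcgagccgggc

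This stretch is 82.4% G and C with 36 CG pairs, against medians of 52% and 6 over 27025 RefSeq promoter stretches of the same length. It holds no AGCT, the form of the AID hotspot that repeats in switch regions. Other forms of the hotspot were not searched. AGCT equals its own reverse complement, so 1 search covers both strands. Of the 27025 stretches, 70.0% hold it at least once, with a mean of 1.25 copies. A RefSeq promoter was matched for 5 of the 8 genes. Bcl6 (chr16:23988853-23989102, minus strand) and Il4ra (chr7:125552021-125552270, plus strand) are shown for contrast, with AGCT in capitals.

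Bcl6: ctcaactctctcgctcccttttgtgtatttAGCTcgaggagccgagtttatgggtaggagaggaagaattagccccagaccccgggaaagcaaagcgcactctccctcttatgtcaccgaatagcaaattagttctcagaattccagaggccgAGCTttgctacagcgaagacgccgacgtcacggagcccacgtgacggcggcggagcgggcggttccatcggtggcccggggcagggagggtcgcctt
Il4ra: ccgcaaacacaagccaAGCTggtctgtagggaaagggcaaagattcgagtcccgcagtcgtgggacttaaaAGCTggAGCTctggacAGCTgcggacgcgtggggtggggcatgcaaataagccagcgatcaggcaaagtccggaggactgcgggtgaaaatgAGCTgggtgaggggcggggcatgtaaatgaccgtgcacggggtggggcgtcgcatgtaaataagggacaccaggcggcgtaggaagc

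Bcl6 has 2 copies of AGCT in this stretch and Il4ra 5, Irf4 has 2 and Il21r has none. Pim1, without a copy, held 132 and 130 reads on 29 and 24 positions in the S and G1 libraries. Bcl6 held 20 and 15 reads on 5 and 3 positions, and Il4ra 12 and 11 reads on 2 and 2 positions. Irf4 held 12 and 28 reads, and Il21r 9 and 5 reads.

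Pim1 had the highest share of recurring positions among the 8 windows. Of its positions, 18 were covered in both libraries on the same strand, which is 19.8% of those in the S library and 33.3% of those in the G1 library. The share of the G1 positions lay at the percentile 99.4 of 16127 protein-coding genes with enough positions, whose median was 1.49%. Myc shared 3 positions (6.25% and 10.3%) and Irf4 0. Over chromosomes 1 to 19, 1.83% of the positions in the S library and 1.93% of those in the G1 library were shared.

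In the 2 kb after the start (for Il21r the RefSeq promoter's start, 177 bases inside the gene), where AID activity is known to concentrate, the genes went different ways by reads and none differed by positions. Bcl6 held 38 reads against 24, a ratio of 2.07 (1.21 to 3.61), and was the gene with an interval above 1. Its positions were 10 against 7, a ratio of 1.36 (0.467 to 4.20), and without its position with the most reads the ratio by reads was 1.64 (0.925 to 2.92). Pvt1 held 14 reads against 54, a ratio of 0.339 (0.174 to 0.619), on 5 and 7 positions, a ratio of 0.679 (0.170 to 2.49). Irf4 held 10 reads against 30, a ratio of 0.436 (0.190 to 0.917), on 3 and 6 positions, and without its position with the most reads the interval held 1 (0.242 to 1.24).

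Pim1 held 34 reads in each library in this window, on 13 and 9 positions, a ratio of 1.31 by reads (0.789 to 2.17). Myc held 25 reads against 28, on 12 and 10 positions, a ratio of 1.17 (0.654 to 2.08). Neither of these well-known AID targets differed here beyond counting error. Among the surface molecules, Cd83 held 17 reads against 12 on 5 and 3 positions, Il4ra 23 against 17 on 9 and 4, and Il21r 17 against 20 on 7 and 4. Their ratios by reads were 1.85 (0.835 to 4.26), 1.77 (0.905 to 3.53) and 1.11 (0.547 to 2.24). At this depth a difference at a single start was detectable only when it was large.

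In the first 2 kb, 6 of the 8 ratios were above 1 by reads, beside 60.4% of protein-coding genes, and 6 by positions, beside 61.1%. By the rule of size, 3 of the 8 genes were higher in the S library by reads (Bcl6, Cd83 and Il4ra), beside 36% of protein-coding genes. Pvt1 and Irf4, 2 of the 8, were lower, beside 20.9%. By the interval, 1 gene lay above 1 by reads (Bcl6, beside 25.3% of protein-coding genes) and 2 below (11.7%). The rule of size gave 3 higher (35.7%) and 1 lower (15.9%) by positions. By positions 0 of the 8 intervals lay above 1 (4.36%) and 0 below (0.825%). The median log2 ratio was 0.30 by reads, beside 0.24 over protein-coding genes, and 0.41 by positions, beside 0.26. Summed, the 8 windows held 178 reads against 219, a ratio of 1.06 (0.868 to 1.30), and 64 positions against 50, a ratio of 1.22 (0.827 to 1.80). Without Pvt1 the sum gave 1.30 by reads (1.04 to 1.62) and 1.30 by positions (0.866 to 1.98).

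Set against the rest of the gene body per kb, the first 2 kb held 1.33 times the density (1.14 to 1.55) in the S library over the 8 genes. In the G1 library it was 1.41 times (1.22 to 1.62), and these intervals overlapped. Protein-coding genes gave 1.58 and 1.28. By positions the 8 genes gave 1.33 and 1.32, beside 1.46 and 1.21 in protein-coding genes. Pvt1 supplied 220 of the 335 kb of the rest. Single genes again went opposite ways by reads. Bcl6 had 2.11 (1.45 to 3.01) in the S library and 1.25 (0.781 to 1.91) in the G1 library. Pvt1 had 0.886 (0.483 to 1.49) and 2.79 (2.09 to 3.65), and Irf4 0.502 (0.236 to 0.947) and 1.22 (0.800 to 1.80). By positions the intervals of these 3 genes held 1 in both libraries.

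Along the genes, the highest 1 kb bin of the 8 together was the 1 kb before the start in both libraries, and Pim1 held much of it. The 8 genes had 1.41 positions per gene and 1000000 positions in this bin in the S library and 1.04 in the G1 library. Without Pim1 the other 7 had 0.806 and 0.509, and their highest bin in the G1 library was the 1 kb after the start, at 0.551. Protein-coding genes had their highest bin in the 1 kb before the start in both libraries, at 1.1 and 0.81.

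**Figure D4:**
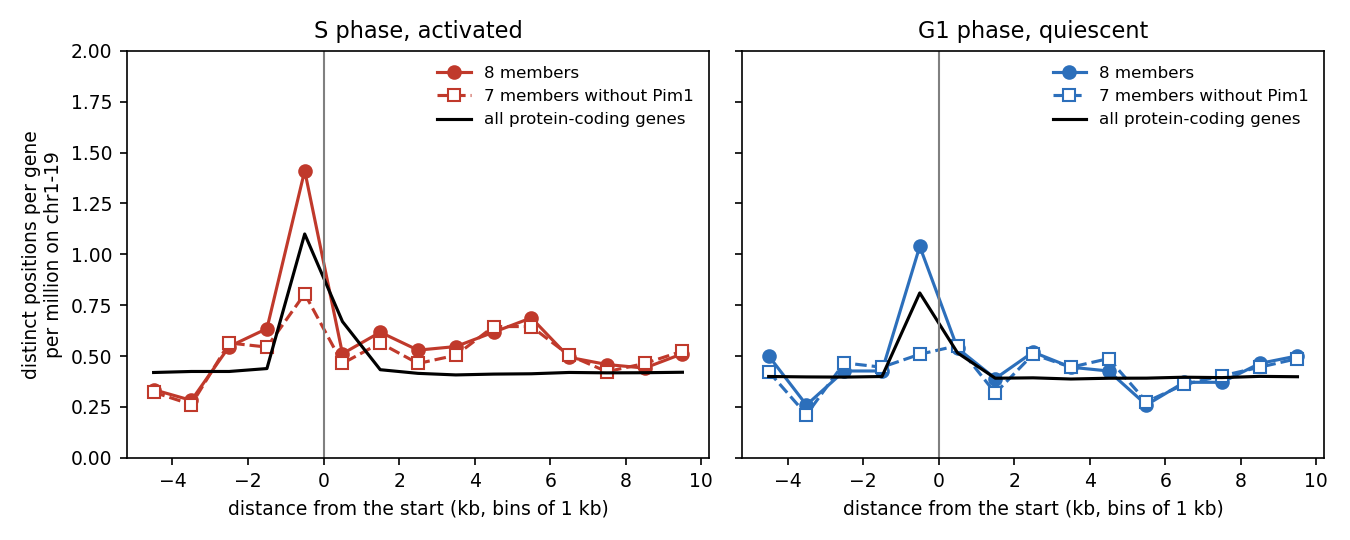
Distinct positions per gene and per 1000000 in 1 kb bins by distance from the start, for the 8 genes, the 7 without Pim1 and protein-coding genes, in the S library and the G1 library. The bin before the start is the highest for the 8 genes (1.41 and 1.04) and falls to 0.806 and 0.509 without Pim1.

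Gene by gene, the 1 kb before the start was added as a window after its values were seen. Myc held 16 reads on 6 positions there in the S library and 0 in the G1 library. The lower 95% limit of the ratio was 5.05 by reads and 1.12 by positions, and no upper limit exists against a count of 0. With 16 reads over both libraries, Myc was below the minimum of 20 for counting. Il21r held 16 reads against 6, a ratio of 3.49 (1.30 to 10.9), on 6 and 2 positions. Il4ra held 30 against 20, a ratio of 1.96 (1.08 to 3.65), on 7 and 4 positions, and all but 1 of these reads were on the minus strand. Pvt1 held 22 against 14, a ratio of 2.06 (1.01 to 4.35), the opposite direction from its first 2 kb. Bcl6 (24 against 27), Cd83 (5 against 10) and Irf4 (14 against 36) gave 1.16, 0.654 and 0.509, and the interval of Irf4 lay below 1 (0.254 to 0.967). By positions the intervals held 1 for Pvt1 (0.389 to 25.0), Il21r (0.510 to 28.9), Il4ra (0.423 to 7.75) and Irf4 (0.191 to 3.12). As background, 37.7% of protein-coding genes with at least 20 reads had an interval above 1 in this window by reads and 9.09% one below. Of the 8 genes, 6 reached that minimum, all but Myc and Cd83. By positions these were 7.94% and 0.449%.

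Over the 8 genes the plus strand held 1811 reads against 1845, a ratio of 1.28 (1.20 to 1.37), and the minus strand 1692 against 2215, a ratio of 1.0005 (0.939 to 1.07). By positions the plus strand gave 1.35 (1.20 to 1.53) and the minus strand 1.06 (0.939 to 1.19). No summed strand ratio was counted over protein-coding genes, whose median plus-strand share of reads was 50% in both libraries. Pvt1 supplied 1017 of the plus-strand reads and 777 of the minus-strand reads in the S library. The other 7 genes gave 1.35 (1.22 to 1.49) and 1.14 (1.05 to 1.25) by reads, and 1.42 (1.18 to 1.70) and 1.17 (0.988 to 1.40) by positions, and these strand intervals overlapped. Pim1 went the other way, at 1.48 (1.09 to 2.00) on the plus and 1.87 (1.52 to 2.30) on the minus strand. Bcl6 is transcribed from the minus strand and the other 7 genes from the plus strand, so the split is by chromosome strand and not by coding strand.

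Bcl6 and Pvt1 were the genes whose strand ratios had intervals apart by reads. In Bcl6 the plus strand held 166 reads against 119, a ratio of 1.82 (1.43 to 2.33), and the minus strand 116 against 163, a ratio of 0.932 (0.728 to 1.19). By positions Bcl6 gave 1.93 (1.22 to 3.13) and 0.927 (0.581 to 1.48), and these intervals overlapped. In Pvt1 the plus strand held 1017 reads against 1074, a ratio of 1.24 (1.14 to 1.35), and the minus strand 777 against 1168, a ratio of 0.871 (0.795 to 0.955). By positions Pvt1 gave 1.30 (1.11 to 1.54) and 0.958 (0.808 to 1.13), which overlapped as well. The 500 kb on each side of Pvt1 gave 0.980 on the plus and 1.01 on the minus strand, and those around Bcl6 gave 1.07 and 1.06. Strand intervals apart by reads were also found in the surroundings of other genes. The 500 kb around Myc, which include Pvt1, gave 1.06 (1.01 to 1.10) and 0.964 (0.925 to 1.005). Those around Irf4 gave 1.04 (1.002 to 1.09) and 1.15 (1.10 to 1.20). By positions the strand intervals of both surroundings overlapped.

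As a share of its reads, the plus strand of Bcl6 went from 42.2% (36.4 to 48.2) in the G1 library to 58.9% (52.9 to 64.7) in the S library. That of Pvt1 went from 47.9% (45.8 to 50.0) to 56.7% (54.4 to 59.0). These intervals are exact Clopper-Pearson 95% intervals, and 2 of the 8 genes had them apart with the higher share in the S library, beside 9.85% of protein-coding genes. By positions 0 of the 8 did, beside 0.248%. A lower share with intervals apart was found in 0 of the 8, beside 9.15% by reads and 0.271% by positions. Myc had 28.0% and 45.8% with intervals that touched (20.3 to 36.7 and 36.6 to 55.2), its plus-strand reads being 35 and 54. Pim1, with its minus-strand group, had 34.8% in the G1 library and 29.7% in the S library.

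Pvt1 is long enough to be followed in bins of 10 kb. Its 22 full bins had ratios from 0.444 to 2.35 by reads with a median of 1.03, and 4 intervals lay above 1 and 3 below. The lowest was the first bin, from 0 to 10 kb, with 56 reads against 165, a ratio of 0.444 (0.322 to 0.605), on 28 and 33 positions, a ratio of 0.807 (0.470 to 1.38). By positions the bins ranged from 0.781 to 2.19 with a median of 1.07, and 1 interval lay above 1 and 0 below. That bin, from 40 to 50 kb, held 30 positions against 13, a ratio of 2.19 (1.11 to 4.58), and 95 reads against 53. Bins of 10 kb outside Pvt1 were not tallied, so these bin counts have no background, by reads or by positions.

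**Figure D5:**
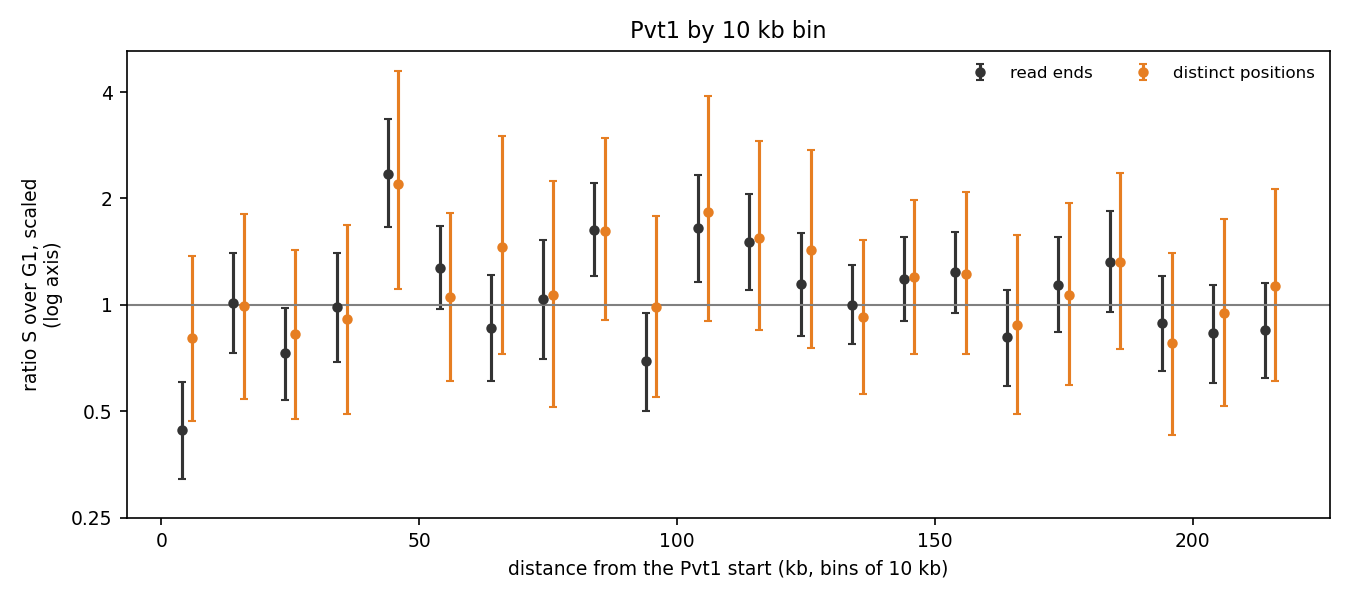
Ratio of the S over the G1 library in the 22 full bins of 10 kb along Pvt1 (log axis), against distance from its start in kb, by reads and by distinct positions, with 95% counting intervals. The first bin is lowest by reads at 0.444, and by positions the bin from 40 to 50 kb has an interval above 1, at 2.19.

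In the other genes the 1 kb bin with the highest sum of both scaled libraries lay at different places. For Cd83 it was 7 to 8 kb after the start, with 28 reads against 12 on 9 and 3 positions, while the bin from 4 to 5 kb held 15 against 26. For Irf4 it was 12 to 13 kb after the start, with 31 reads against 34, while the 1 kb before its start held 14 against 36. For Myc it was 2 to 1 kb before the start, with 28 reads against 47, although 12 positions stood against 7.

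The surroundings of each gene were counted in the same way. In the 500 kb on each side, without the gene window, the ratio ran from 0.996 around Pvt1 to 1.16 around Pim1. The median was 1.10, and 6 of the 8 intervals lay above 1. The surroundings of Myc and Pvt1 include each other's gene, as do those of Il4ra and Il21r, so the 8 are not separate regions. No share over all genes was counted for the surroundings or for the ratios relative to them. Copy number differs along the genome in S phase, and its part in the gene ratios was not tested apart from this scaling. Relative to its own surroundings, Pim1 had 1.498 (1.26 to 1.78), just under the 1.5-fold rule, and Bcl6 1.23 (1.04 to 1.45). With 5 kb flanks Pim1 had 1.48 (1.27 to 1.72). The remaining intervals held 1, from 0.837 (0.699 to 1.0015) for Irf4 to 1.22 (0.944 to 1.59) for Myc. By positions none of the 8 relative intervals lay above 1, with Pim1 at 1.39 (0.985 to 1.99).

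The nearest protein-coding neighbours were set beside each gene. Pim1 lies between Fgd2, at 1.31 (1.02 to 1.68), and Tmem217, at 1.11 (0.971 to 1.28). Irf4, below 1, lies between Dusp22, at 1.02, and Exoc2, a subunit of the exocyst, at 1.23 (1.15 to 1.31). Bcl6 lies between Rtp2, at 0.999, and Lpp, at 1.03, and Cd83 between Rnf182, at 0.878, and Jarid2, at 1.09. Nsmce1, before Il4ra, had 1.14, and Gtf3c1, after Il21r, had 1.25 (1.12 to 1.39). The nearest protein-coding genes around Myc and Pvt1 are A1bg, at 1.75 (1.22 to 2.51), and Gsdmc, at 0.914 (0.788 to 1.06), which lie 1064 kb before and 1786 kb after Myc. Between the windows of Myc and Pvt1 the stretch held 335 reads against 442, a ratio of 0.992 (0.858 to 1.15). Between Il4ra and Il21r it held 153 against 137, a ratio of 1.46 (1.15 to 1.85), above that of either gene, with 50 positions against 34, a ratio of 1.40 (0.886 to 2.23).

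The genes most like each member were found over 4 values, the log2 density on each strand in each library, among 21742 protein-coding genes. By Euclidean distance, Sharpin was nearest to Pim1 (0.279), Olfr1347 to Myc (0.174), Mtres1 to Il4ra (0.114) and Zfp1 to Cd83 (0.0899). The remaining pairs were Bcl6 and Atp5g2 (0.0820), Irf4 and Kpna3 (0.0648), Il21r and Cfap99 (0.0604) and Pvt1 and Exph5 (0.0305). Pim1 had the largest distance.

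Of 21 other known AID off-target genes, 20 were matched, and 9 of these 20 had an interval above 1 in the gene window by reads, beside 36.1% of protein-coding genes, and 1 below. Their median log2 ratio was 0.17 by reads and 0.35 by positions, and 7 of the 20 intervals lay above 1 by positions, beside 15.1%. The 3 highest were Junb, an AP-1 transcription factor, at 2.04 (1.65 to 2.53) with 229 reads against 147, the antiproliferative gene Btg2 at 1.71, and the non-coding Gas5 at 1.69. The 3 lowest were Mir155hg at 0.660 (0.476 to 0.907) with 60 reads against 119, Mir155, which lies within it and shares its reads, at 0.853, and Ciita, the regulator of MHC class II genes, at 0.926. Scaled to the surroundings, the count with an interval above 1 was 5 of the 20, and the share of protein-coding genes was not counted in this way. In the first 2 kb, 15 of these genes could be counted, and 8 of the 15 had an interval above 1 by reads (25.3% of protein-coding genes) with a median log2 ratio of 0.96 against 0.24. By positions 3 of the 15 did (4.36%), with a median of 0.52 against 0.26.

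Among 15 genes of the AID machinery, which covers cofactors and the repair of the lesions, 11 had an interval above 1 and 1 below by reads, beside 36.1% and 11.1% of protein-coding genes, with a median log2 ratio of 0.41. By positions 5 lay above 1 and 1 below, beside 15.1% and 3.27%. The highest were the RNA exosome subunit gene Exosc3 at 2.02 (1.43 to 2.87), the end-joining ligase gene Lig4 at 1.78 and the elongation factor gene Supt5 at 1.69. Among the lowest were the splicing regulator gene Ptbp2 at 0.912 (0.821 to 1.01) and the end-joining gene Xrcc4 at 0.934 (0.885 to 0.986). At the immunoglobulin heavy chain locus, the 10 kb upstream of Ighm, which contain its switch region, held 122 reads against 95, a ratio of 1.68 (1.27 to 2.22), and 48 positions against 19, a ratio of 2.40 (1.39 to 4.33). The gene windows of Ighg1 and Ighe gave 2.26 (1.58 to 3.25) and 0.897 (0.574 to 1.39), and the 10 kb upstream of them 1.44 (1.03 to 2.02; by positions 1.40, 0.781 to 2.57) and 1.20 (0.898 to 1.59).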

How the data were processed

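END-seq of 1 S-phase and 1 G1-phase library was analysed. The authors deposited 1 track per library and strand, whose values are counts of reads per base on mm10, without normalization per the file headers. Bowtie 1.1.2, SAMtools 1.11 and bedtools are listed in the submitters' processing notes, and the handling of duplicate reads is not given in the sources used here. Sums were made in pandas 2.3.3 and numpy 2.4.6 under Python 3.11.15, with scipy 1.17.1 for intervals and matplotlib 3.10.9 for plots. Gene coordinates came from RefSeq on GRCm38.p6, the assembly that mm10 represents, and starts and strands from RefSeq promoters. For Myc, Pvt1 and Cd83 the plus strand was taken from general knowledge. Exon and intron annotation was not used here.

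The 8 genes and all lists were chosen with earlier results of these data known, in part by a session that had seen them. Genes with at least 20 reads over both libraries were counted, with a pseudocount of 1 for log2 values and a call at 1.5-fold. With 1 library per group no test was run. The interval was tried on simulated Poisson counts without stacked reads, so that trial does not cover stacking. The text names all 8 genes, the 3 highest and 3 lowest of the other AID off-target and AID machinery genes, the nearest protein-coding neighbours, the gene most alike by 4 values, and Ighm, Ighg1 and Ighe. An item that this rule names is not reported here. Alternatives covered scaling, positions, caps on stacked reads (28 and 38 reads), strands, window sizes and thresholds. Scaling to 20543572 and 26889564 reads, a count of 0 allows up to 0.146 and 0.112 reads per 1000000, the level of 3 reads.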

Additional observations from a re-analysis of the deposited data

How the results depend on the processing

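No paired analysis was possible because each group is 1 library. The alternatives to the first 2 kb include the 1 kb before the start, which lies outside that window. There the Myc ratio, 16 reads against 0, has no finite value and is left out of the tally below. Of 176 alternative values of the gene ratios, 149 lay within the interval of the main value, and 17 lay on the other side of 1 from it, 6 in the gene windows and 11 in the first 2 kb. For 2 of these 17 the main interval had excluded 1. Those were Bcl6 in its gene window on the minus strand alone (0.932) and Pvt1 in the 1 kb before its start (2.06 in place of 0.339 in the first 2 kb), a window added after the data were seen. Pim1 in its gene window kept an interval above 1 under all 11 alternatives (1.48 to 2.35), each changing 1 setting. The highest, 2.35, left out the 1 kb before the start, a choice made after its values were seen. By positions, the Pim1 interval held 1 relative to the surroundings (0.985 to 1.99) and on each strand alone (0.975 to 2.98 and 0.976 to 2.48). Irf4 stayed below 1 in its gene window under all 10 alternatives (0.837 to 0.976). The median log2 ratio of the 8 gene windows was 0.13 to 0.36, except on the minus strand alone, where it was -0.052. That of the first 2 kb was 0.10 to 0.48, except -0.29 on the minus strand alone.

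In the gene windows, the 1 gene at least 1.5-fold higher became 3 by distinct positions, 2 on the plus strand or without flanks, and 0 when scaled to the 500 kb around, with 5 kb flanks or at a 2-fold call. The 3 intervals above 1 became 5 with plus-strand reads alone and 1 with minus-strand reads alone, where 1 interval lay below 1 in place of 0. In the first 2 kb, the 3 genes at least 1.5-fold higher became 1 with 5 kb after the start, at a 2-fold call or with at least 50 reads. The 2 lower became 1 by positions, with 1 kb on each side of the start or with at least 50 reads. The 1 interval above 1 became 0 by positions or with 1 kb after the start, 2 without the position with the most reads, on the minus strand or with 5 kb, and 3 with 1 kb on each side. The 2 intervals below 1 became 0 by positions or with 1 kb on each side, and 1 without the position with the most reads, on either strand alone, with 1 kb after the start or with at least 50 reads. Shares of protein-coding genes were counted for the main setting and by positions, and not under the other alternatives. These counts therefore have no background beside them. The causes were not tested. With 10 to 54 reads and 3 to 13 positions per gene and library, the first 2 kb windows are limited by depth.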
